A study of Mus musculus with 4 samples.

Results

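The genes described here are markers of eosinophils, chosen as a set of 10: the eosinophil-associated ribonucleases Ear1, Ear2, Ear6 and Ear10, the granule protein genes Epx, Prg2 and Prg3, the receptor genes Il5ra and Siglecf, and the lipid enzyme gene Alox15. They were picked because such genes stood among the highest after sLTβR-Fc, so the values on that array chose them and are given as a description, with no test. Of the 10 genes, 8 had a probe with that gene as its single symbol, through 9 of the 34885 probes with 1 symbol (45281 probes in all). Ear1 and Ear2 had no such probe and have no value here. Of these 8 genes only the granule genes were clearly measured. All 5 granule genes with a probe were above background on every array, whereas Siglecf and Alox15 lay at background and Il5ra just above it.

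The arrays measured RNA of cells sorted from the spleen as marginal zone macrophages, with low CD11b, surface SIGN-R1, and neither F4/80 nor I-Ab. All mice were BXD2, a recombinant inbred strain with spontaneous lupus-like disease, aged 2.5 months and killed 10 hours after an injection. The 2 control arrays came from BXD2 mice given PBS, 1 array came from BXD2-Ifnar-/- mice, which lack the type I interferon receptor, given PBS, and 1 array came from BXD2 mice given 25 µg of sLTβR-Fc, a soluble lymphotoxin β receptor fused to an antibody Fc part, by vein. Each array held RNA of cells pooled from 2 mice, and a control Fc protein was not among the injections, so blockade of the receptor and other effects of the injected protein cannot be told apart. The study asked how losing either signal alters these macrophages.

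Eosinophils are granulocytes that mature in the bone marrow under the cytokine interleukin-5, acting through the receptor chain encoded by Il5ra. While they mature they fill their granules with cationic proteins: ribonucleases, a peroxidase and the major basic proteins. The transcription factors GATA1, PU.1 and C/EBPε drive that programme, and granule mRNA is highest in precursors, while mature cells keep mainly the stored protein. Siglec-F, a sialic acid-binding lectin, marks mature mouse eosinophils and also alveolar macrophages, and Alox15, a lipoxygenase that oxygenates arachidonic acid, is shared with resident peritoneal macrophages.

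The promoters are printed because the members that moved together can be compared there, and because GATA1, PU.1 and C/EBP motifs could be counted. Each is RefSeq sequence of build GRCm38.p6, 300 bases from 250 before to 50 after the annotated start, and 8 of the 10 genes had an entry. The windows are chr14:51853518-51853817, plus strand (Ear6), chr14:43923547-43923846, minus strand (Ear10), chr11:87875487-87875786, minus strand (Epx), chr2:84987965-84988264, plus strand (Prg3) and chr6:106748988-106749287, minus strand (Il5ra). Sequences run 5′ to 3′ on the gene's strand, and capitals mark matches on either strand to the GATA motif AGATAA or TGATAA, the C/EBP motif TTGCNNCAA or the PU.1 motif AGGAAG.
Ear6: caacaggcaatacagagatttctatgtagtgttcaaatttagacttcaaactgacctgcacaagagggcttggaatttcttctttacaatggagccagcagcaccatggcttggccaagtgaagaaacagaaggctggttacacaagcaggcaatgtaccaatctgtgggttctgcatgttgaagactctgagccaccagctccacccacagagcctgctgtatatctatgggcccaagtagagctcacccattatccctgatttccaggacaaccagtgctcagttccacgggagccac
Ear10: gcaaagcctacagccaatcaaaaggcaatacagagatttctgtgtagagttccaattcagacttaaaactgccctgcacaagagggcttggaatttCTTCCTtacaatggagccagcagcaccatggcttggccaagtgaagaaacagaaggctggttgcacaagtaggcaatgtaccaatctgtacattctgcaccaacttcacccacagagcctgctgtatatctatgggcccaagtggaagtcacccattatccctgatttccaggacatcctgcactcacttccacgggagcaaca
Epx: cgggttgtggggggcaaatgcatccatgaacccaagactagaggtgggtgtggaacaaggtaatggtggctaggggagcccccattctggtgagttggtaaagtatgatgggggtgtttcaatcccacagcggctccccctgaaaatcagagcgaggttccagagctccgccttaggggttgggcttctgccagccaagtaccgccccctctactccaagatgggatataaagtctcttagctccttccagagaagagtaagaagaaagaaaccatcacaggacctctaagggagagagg
Prg3: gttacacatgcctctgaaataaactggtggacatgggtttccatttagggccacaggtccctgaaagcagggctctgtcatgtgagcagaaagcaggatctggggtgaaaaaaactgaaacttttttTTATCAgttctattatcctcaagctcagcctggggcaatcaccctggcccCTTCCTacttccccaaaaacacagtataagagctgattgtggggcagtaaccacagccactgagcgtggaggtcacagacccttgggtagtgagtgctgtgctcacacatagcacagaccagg
Il5ra: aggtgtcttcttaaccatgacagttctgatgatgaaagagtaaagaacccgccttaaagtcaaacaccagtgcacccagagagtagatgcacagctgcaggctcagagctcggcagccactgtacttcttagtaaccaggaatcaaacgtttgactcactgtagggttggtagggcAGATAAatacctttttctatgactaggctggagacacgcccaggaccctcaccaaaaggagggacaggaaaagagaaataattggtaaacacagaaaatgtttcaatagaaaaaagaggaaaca

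The Ear promoters were close copies of each other. Over the 6 pairs of Ear1, Ear2, Ear6 and Ear10, between 92.2% (Ear6 and Ear10) and 99.0% (Ear1 and Ear2) of aligned bases were identical. The PU.1 motif was present in 5 of the 8 promoters (Ear1, Ear2, Ear10, Prg3 and Siglecf), against 35.4% of all 32851 promoters of this length. In Ear1, Ear2 and Ear10 it stood at 152, 150 and 154 bases before the start, inside sequence that these genes share, and Ear6 did not hold it. The GATA motif was present in 3 of 8 (Prg3 at -123, Il5ra at -74 and Siglecf at 12 after the start), against 18.6% of all promoters, and the C/EBP motif in 0 of 8, against 2.08%. The promoters of Ear6 and Epx, the genes with the largest increases below, held none of these letters. A match describes the sequence and is not a binding site.

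The eosinophil-associated ribonuclease genes Ear6 and Ear10 were above background on every array. Values here are bead intensities after quantile normalisation, on which the background limits of the arrays averaged 111. Ear6 read 380 on control 1, 422 on control 2, 395 in Ifnar-/- cells and 3335 after sLTβR-Fc. The first 3 values lay close together and the fourth stood apart, 8.33-fold above the control mean (log2 3.06, and 3.13 and 2.98 from each control). Ear10 read 1429.8 and 1239 with PBS, 1183 in Ifnar-/- cells and 4449 after sLTβR-Fc. Its increase on the last array was the smallest of the granule genes, 3.34-fold (log2 1.74). With the deposited values left unscaled, the Ear10 difference was log2 1.13 and no longer reached 2-fold over each control. The Ear genes are near relatives, their probe sequences were not used here, and signal from one may reach the probe of another.

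Epx encodes eosinophil peroxidase, which makes hypobromous acid in the granule. It read 426 and 549.8 with PBS, 436 in Ifnar-/- cells and 3473 after sLTβR-Fc. The controls differed more for this gene than for any other member (log2 0.37), and the Ifnar-/- value lay between them. The sLTβR-Fc value lay 7.18-fold above their mean (log2 2.84).

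Prg2 and Prg3 encode the major basic protein of the granule core and its homologue, and are neighbours among the protein-coding genes of chromosome 2. Prg2 read 3917 and 4419 with PBS, 3132 in Ifnar-/- cells and 19445 after sLTβR-Fc. It was thus below both controls in Ifnar-/- cells and 4.67-fold above their mean after sLTβR-Fc (log2 2.22). Prg3 read 253 and 266 with PBS, 243 in Ifnar-/- cells and 1568 after sLTβR-Fc, 6.04-fold above the control mean (log2 2.60). Between the controls Prg3 differed by only 0.074 on the log2 scale, the smallest gap of the granule genes.

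**Figure D1:**
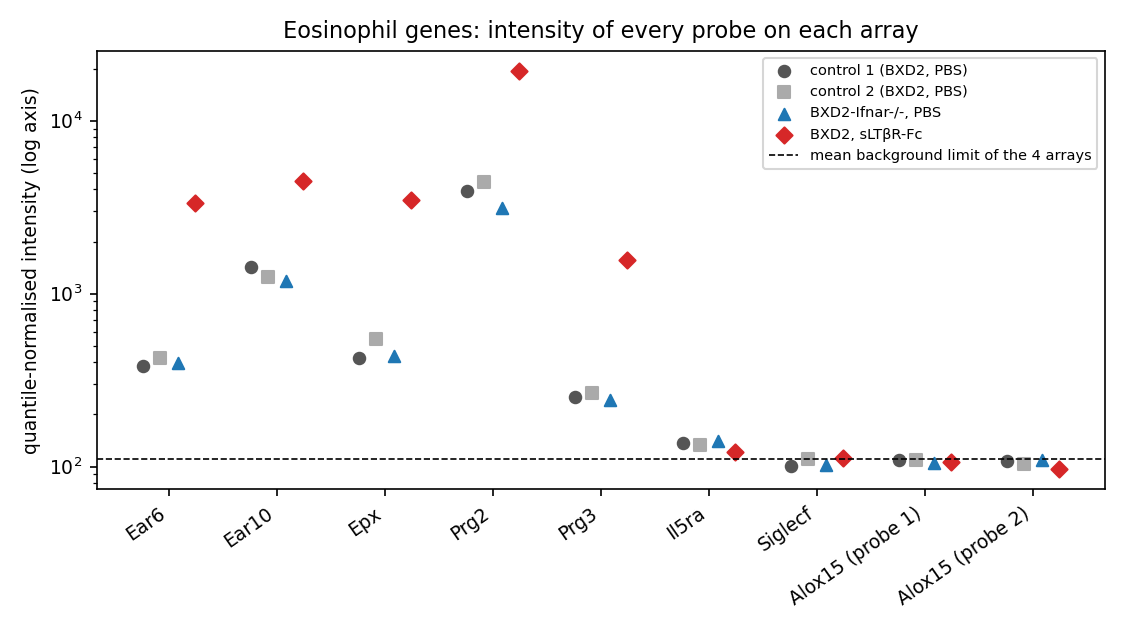
Quantile-normalised intensity (log axis) of each of the 9 eosinophil probes on the 4 arrays; the dashed line is the mean background limit of 111. The sLTβR-Fc array stands above the other arrays for Ear6, Ear10, Epx, Prg2 and Prg3, while the probes of Siglecf and Alox15 lie at the line and Il5ra just above it.

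The receptor and lipid enzyme genes did not share this pattern. Il5ra read 136 and 133 with PBS, 139.5 in Ifnar-/- cells and 122 after sLTβR-Fc, and its deposited values were 1.28, 1.20, 1.24 and 1.09 times the background limit of their arrays. It was therefore lowest, not highest, on the sLTβR-Fc array (log2 -0.14), but it was 0.18 above the controls under median scaling, which moved all probes by a median of 0.33. Siglecf read 100.2 and 111 with PBS, 102 in Ifnar-/- cells and 112 after sLTβR-Fc. It passed its limit on the sLTβR-Fc array alone, by a factor of 1.002. Its normalised value there was 1.11 times that of control 1 and 1.007 times that of control 2. As deposited it was 109, below the 116 of control 2, so no rise is read from it. The first Alox15 probe read 109 and 109 with PBS, 105 in Ifnar-/- cells and 106 after sLTβR-Fc, and the second 107.5, 103, 109 and 96.2 in the same order. Neither Alox15 probe was above background on any array, so no fold is given.

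In all, 5 of the 9 member probes lay 2-fold or more above both controls on the sLTβR-Fc array, where 0.519% of all probes did. Since the genes were chosen on this contrast, nothing is read from that count. The median over the 9 probes was log2 1.74, and over all probes 0.0012. Among the granule genes the difference on the sLTβR-Fc array was 7.70 (Epx) to 35.3 (Prg3) times the gap between the controls. The ratio was also 12.0 for the first Alox15 probe, which was at background, so nothing is read from any of these ratios either. Whether more cells with these transcripts or more transcript per cell gave the higher signal cannot be told apart in RNA of pooled cells.

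**Figure D2:**
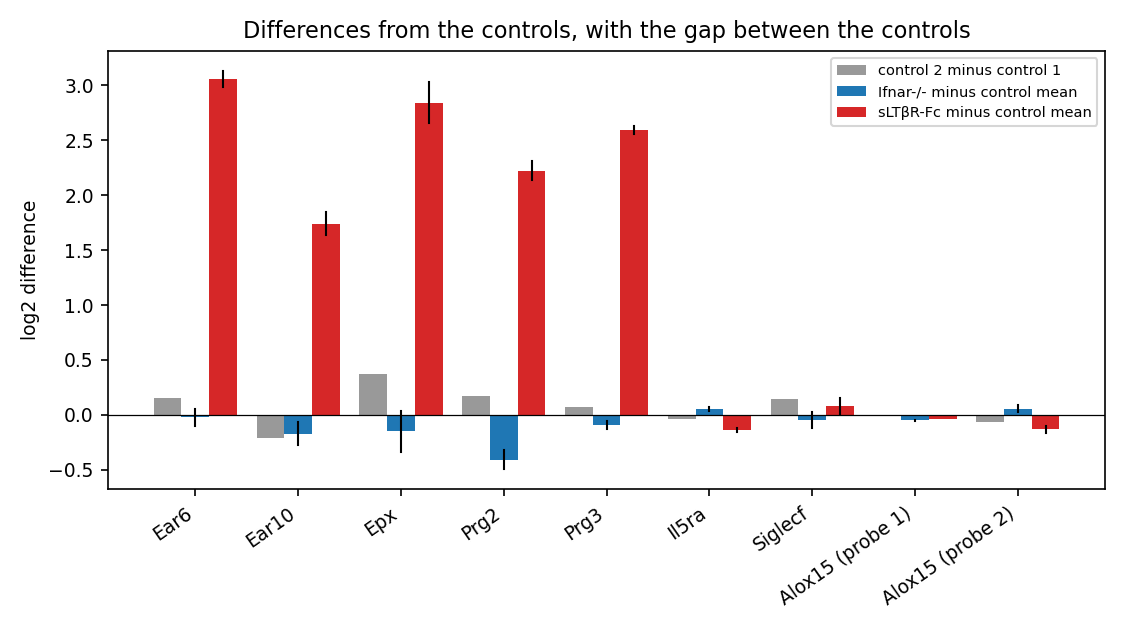
Log2 differences of each probe: control 2 minus control 1 (grey), the Ifnar-/- array (blue) and the sLTβR-Fc array (red) minus the control mean. Black lines span the differences from each single control. Red bars run from 1.74 (Ear10) to 3.06 (Ear6) for the granule genes, and no blue bar reaches -0.5 (the lowest is Prg2, at -0.41).

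In Ifnar-/- cells the granule genes read near the controls, a contrast that the choice of members did not use, although it shares the control arrays. None of the 9 member probes passed limma with Benjamini-Hochberg adjustment over all 34885 probes, where 3.45% were called lower and 3.05% higher, and 1 had an unadjusted p under 0.05. That probe was Prg2, at log2 -0.41 ± 0.15 (SE; adjusted p = 0.106 in limma), lower by 24.7%. Ear10 lay at -0.17 ± 0.22, Epx at -0.15 ± 0.23, Prg3 at -0.093 ± 0.19 and Ear6 at -0.022 ± 0.22, with adjusted p values of 0.788 to 0.981 in limma. For these genes the error was larger than the difference itself. Il5ra lay at 0.054 ± 0.093, and Siglecf and the Alox15 probes between -0.050 and 0.057.

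Of the 9 probes, 4 lay below both controls on the Ifnar-/- array (Ear10, Prg2, Prg3 and 1 of Alox15), a share near the 35.2% of all probes that did so. The deposited values gave another picture of this contrast. Without scaling, all 9 lay below both controls and Prg2 passed limma as lower (log2 -0.74, adjusted p = 0.00156), but the median of all probes was then -0.12 and 12.6% of all probes were called lower against 1.01% higher. The fit takes its spread from the 2 control arrays and lends it to the lone array. Nothing in the labels says whether the control arrays came from separate mice, so the p-values reflect the spread of this pair alone, possibly a technical one.

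**Figure D3:**
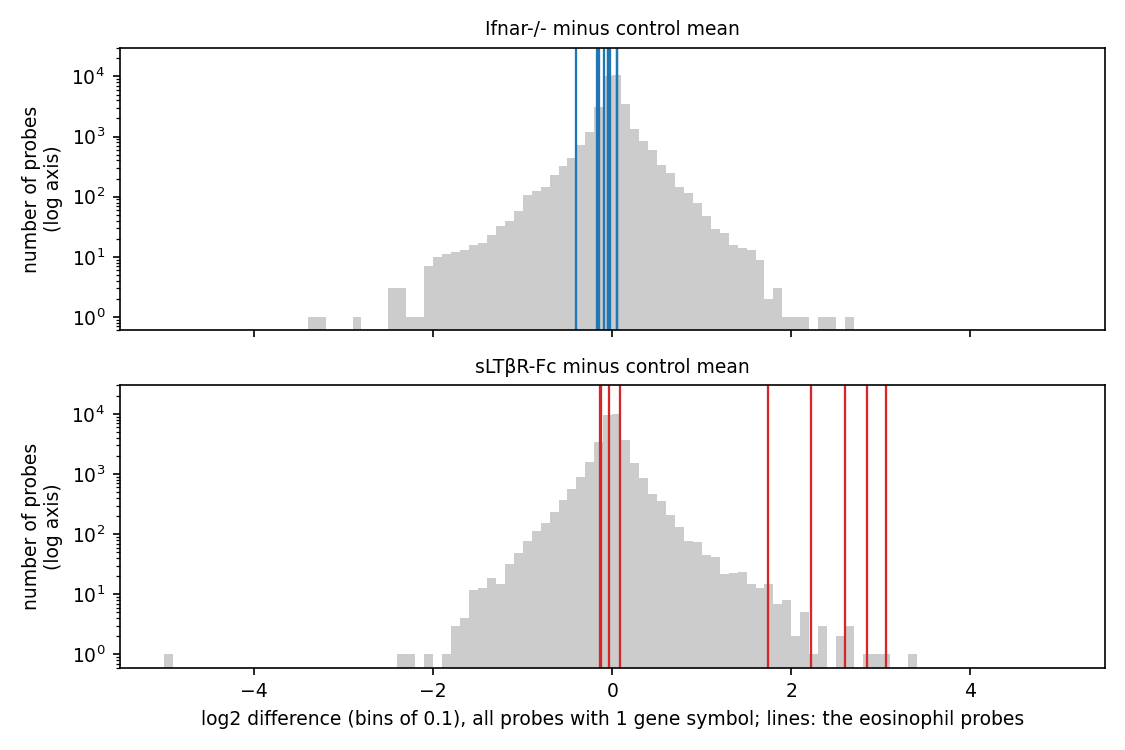
Distribution of log2 differences (bins of 0.1, log axis for the number of probes) over all 34885 probes with 1 symbol, for Ifnar-/- (top) and sLTβR-Fc (bottom), with a line for each eosinophil probe. On the sLTβR-Fc array 5 lines lie in the far right tail, at 1.74 to 3.06, and the other lines lie near 0, while on the Ifnar-/- array all lie between -0.41 and 0.057.

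Ranked over all 34885 probes by the difference on the sLTβR-Fc array, Ear6 stood at place 2, Epx at 4, Prg3 at 8, Prg2 at 13 and Ear10 at 47. The remaining members stood at 8926 (Siglecf), 22006 and 28781 (Alox15) and 29090 (Il5ra). In these ranks the granule genes stood in the top 47 and the receptor and enzyme genes in the body of the distribution. Since the genes were chosen on this contrast, nothing is read from the high places. Siglecf, Alox15 and Il5ra lay at or just above background, so their places do not show that they were unchanged.

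Other ribonuclease and enzyme genes of eosinophils mostly lay higher after sLTβR-Fc as well. Of 16 such genes besides the members, 11 had a probe and 9 were above background on at least 1 array. On the sLTβR-Fc array 7 of these lay above both controls and 1 below both, against 43.9% and 35.8% of all 14490 genes so measured, and 2 lay 2-fold above, against 1.02%. Their median was 0.58, and that of all genes 0.018. Among the 7 above both controls was the ribonuclease gene Ear14 (1.08-fold), which passed background on the sLTβR-Fc array alone. Ear3, another eosinophil-associated ribonuclease, read 1854 and 2325 with PBS, 1908 in Ifnar-/- cells and 6912 after sLTβR-Fc (3.33-fold), and the median of its other probes was log2 1.84. Rnase2a, of the same family, read 194 and 159 against 469 (2.67-fold). Alox5ap, which hands arachidonic acid to 5-lipoxygenase, read 2275 and 2026 against 3943 (1.84-fold). Ltc4s and Hpgds, the synthases of leukotriene C4 and prostaglandin D2, stayed at 113 to 128 on the 4 arrays. In Ifnar-/- cells 1 of the 9 passed limma as higher (Adam8, a metalloprotease, log2 0.61, adjusted p = 0.00013, with 0.28 on its other probes) and none as lower, against 5% and 5.33% of all genes so measured.

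Receptors of eosinophils other than the members were mostly within 2-fold of the controls. Of 19 listed, 17 had a probe and 13 were above background on at least 1 array, with 9 above both controls and 1 below both on the sLTβR-Fc array at a median of 0.18, against 43.9% and 35.8% of all genes so measured. Csf2ra, the α chain of the GM-CSF receptor, was the 1 gene past 2-fold (1.02% of all genes were), reading 262 and 269 with PBS, 364 in Ifnar-/- cells and 619 after sLTβR-Fc. Ccr3, the eotaxin receptor by which mature eosinophils enter tissues, was not above background on any array. In Ifnar-/- cells Adgre1 (F4/80, log2 1.21 ± 0.27) and P2ry10, a lysophospholipid receptor (0.65 ± 0.17), passed limma as higher, with adjusted p values of 0.00413 and 0.0169. Their other probes had medians of 0.63 and 0.27, and the Adgre1 controls, at 629 and 306, differed by log2 -1.04, nearly as much as the called difference. Itga4, an integrin chain, passed as lower (log2 -1.30 ± 0.26), but the median of its other probes was 0.011. Over all genes 5% were called higher and 5.33% lower.

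Among transcription factors of the lineage, 11 of 12 had a probe and all 11 were above background on at least 1 array. On the sLTβR-Fc array 8 lay above both controls and 2 below both, 3 were 2-fold above, and the median was 0.82. The shares of all genes were 43.9%, 35.8% and 1.02%. Cebpe, which encodes the C/EBPε needed for granule formation, read 312 and 254 with PBS, 238 in Ifnar-/- cells and 909 after sLTβR-Fc (3.23-fold), but the median of its other probes was log2 0.17. Gata2, shared with mast cells and basophils, read 1062 and 1636 with PBS, 2326 in Ifnar-/- cells and 3779 after sLTβR-Fc. Cebpb, also an early response gene of myeloid cells, read 299.9 and 245 with PBS, 813 in Ifnar-/- cells and 1189 after sLTβR-Fc. Gata1, the factor that eosinophil development requires, read 132 and 131 with PBS, 132 in Ifnar-/- cells and 118 after sLTβR-Fc. No rise was seen on this probe, but its values lay close to the mean background limit of 111, which limits what they show. Without the interferon receptor 5 of the 11 passed limma as higher and 0 as lower, against 5% and 5.33% of all genes, led by Cebpb (log2 1.58 ± 0.21, adjusted p = 7.48e-06) and Id2 (0.94 ± 0.20, adjusted p = 0.0031).

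Cytokines and chemoattractants that act on eosinophils were mostly dim in these sorted cells. All 13 listed had a probe and 10 were above background on at least 1 array, with a median of 0.056 after sLTβR-Fc. On that array 6 lay above both controls and 2 below both, against 43.9% and 35.8% of all genes so measured. Il5 read between 102 and 115 on the 4 arrays and passed background on 2 of them. Ccl24, an eotaxin, read between 108 and 112, and Ccl11, eotaxin-1, read 116 and 125 with PBS, 123 in Ifnar-/- cells and 155 after sLTβR-Fc. Il4 was the 1 gene past 2-fold (1.02% of all genes were), reading 165 and 258 with PBS, 409.7 in Ifnar-/- cells and 553 after sLTβR-Fc. The controls of Il4 differed by log2 0.64. Without the interferon receptor Il4, Csf2 and Ccl5 passed limma as higher (log2 0.99, 0.53 and 0.65) and none as lower, against 5% and 5.33% of all genes.

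**Figure D4:**
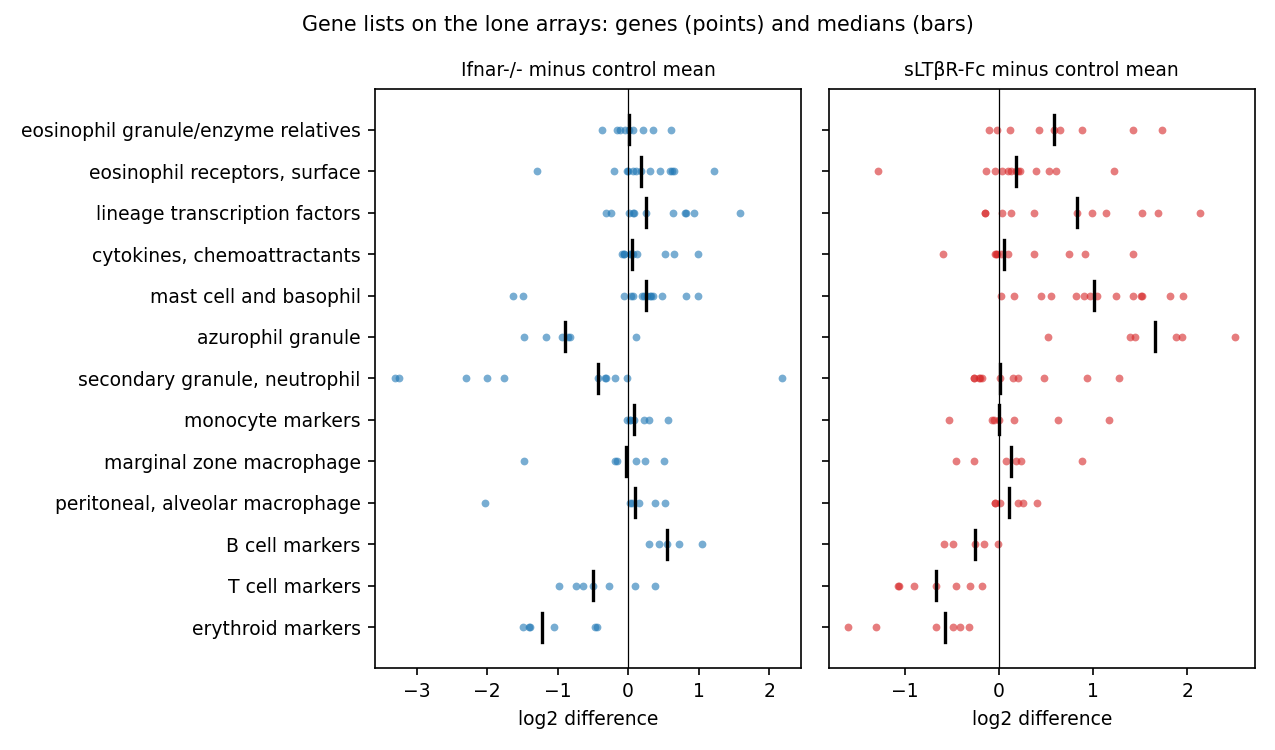
Log2 differences of the genes above background on at least 1 array (points, brightest probe per gene) and list medians (bars), for Ifnar-/- (left) and sLTβR-Fc (right). Azurophil granule and mast cell and basophil genes lie to the right on the sLTβR-Fc array (medians 1.66 and 1.00), and azurophil granule genes lie to the left on the Ifnar-/- array (median -0.90).

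Azurophil granule genes and mast cell and basophil markers also lay higher on the sLTβR-Fc array, while secondary granule and mature neutrophil markers as a list did not. Azurophil granule genes of neutrophil precursors were above both controls in 6 of 6 genes with a probe, of 7 listed, with 5 of them 2-fold above and a median of 1.66 (43.9% and 1.02% of all genes were so). Their summed intensity was 40565 and 30860 with PBS, 18099 in Ifnar-/- cells and 74103 after sLTβR-Fc. Mast cell and basophil markers were above both controls in 13 of the 14 above background, with 6 of them 2-fold above and a median of 1.00. These 6 include Gata2 and Il4, which the lists above also held. The 14 markers summed to 15355 and 19603 with PBS, 15024 in Ifnar-/- cells and 42892 after sLTβR-Fc. The mast cell tryptase gene Tpsab1 was not above background on any array. Tpsb2, a further tryptase gene and 1 of the 13, passed background on the sLTβR-Fc array alone (1.12-fold). Secondary granule and mature neutrophil markers had a median of 0.0044 after sLTβR-Fc and summed to 21374 and 12640 with PBS, 5019 in Ifnar-/- cells and 22202 after sLTβR-Fc. The part of these cell types in the eosinophil signal was not tested.

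On the Ifnar-/- array both neutrophil lists had lower values. There 5 of 6 azurophil genes passed limma as lower, at a median of -0.90, and 6 of 11 secondary granule and mature neutrophil markers did so, with 1 higher (Retnlg), against 5.33% lower and 5% higher over all genes. The second control itself lay below the first on both lists (medians -0.41 and -0.39). Mast cell and basophil markers had a median of 0.25, and among them the basophil protease genes Mcpt8 and Prss34 were lower (log2 -1.64 ± 0.16 and -1.49 ± 0.23) and Gata2 and Il4 higher. None of the granule genes Ear6, Ear10, Epx, Prg2 and Prg3 passed, and the differences between these genes and the lists were not tested.

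Genes of the macrophages that share Siglecf or Alox15 with eosinophils were measured too. Of 8 genes of peritoneal and alveolar macrophages, all had a probe and 6 were above background on at least 1 array. Their median was 0.11 after sLTβR-Fc, with 2 genes above and 2 below both controls, against 43.9% and 35.8% of all genes so measured. They summed to 2646 and 2189 with PBS, 2125 in Ifnar-/- cells and 2826 after sLTβR-Fc. Icam2, an adhesion molecule gene also of endothelium, was bright on every array (1095 and 1250.2 with PBS, 1299 in Ifnar-/- cells and 1542 after sLTβR-Fc). In Ifnar-/- cells Chil3, a chitinase-like gene also of neutrophil precursors, passed limma as lower (log2 -2.03) and Cd9 as higher (0.53). Over all genes so measured 5.33% were called lower and 5% higher, and Chil3 already differed by -1.36 between the controls. Of 7 genes of marginal zone macrophages, 6 were above background on at least 1 array, and their median was 0.12 after sLTβR-Fc. Cd209b, which encodes the SIGN-R1 used for the sort, read only 127 and 130.1 with PBS, 152 in Ifnar-/- cells and 145 after sLTβR-Fc. Marco, a scavenger receptor of these cells, read 252 and 162 with PBS, 181 in Ifnar-/- cells and 168 after sLTβR-Fc. Monocyte markers had a median of -0.0062, and B cell, T cell and erythroid markers had medians of -0.26, -0.68 and -0.58 after sLTβR-Fc (4 of 5, 7 of 7 and 3 of 6 below both controls, against 35.8% of all genes). The median gap from the first control to the second was -0.14, 0.29 and -1.18, so the median erythroid difference was smaller than the median control gap. Klf1, Ermap and Epor differed by more than their own control gaps (log2 -1.31, -1.60 and -0.32, with gaps of -0.34, -0.98 and 0.014). Hba-a1, Alas2 and Slc4a1 differed by less than theirs.

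In likeness of profile over the 4 arrays to the median of the members, Fcnb stood at place 1, Ear3 at 2 and Cebpe at 8. The median of the other Cebpe probes, not used here, was log2 0.17 after sLTβR-Fc. Likeness was the distance between log2 values after subtracting each control mean, over the brightest probes of 14483 other genes. The nearest was Fcnb, a ficolin of myeloid granules (distance 0.251), followed by Ear3 (0.296), the hexokinase gene Hk3 (0.372), Rgcc, Irs2, Rab44, the mast cell protease gene Mcpt1, Cebpe, Zfand2a and Ltb4r1, a leukotriene B4 receptor (0.483). Fcnb read 171 and 162 with PBS, 149 in Ifnar-/- cells and 575 after sLTβR-Fc. Against the median of the 5 granule genes, a ranking added after the values were seen, Mcpt1 came first (distance 0.63), the neutrophil elastase gene Elane and the mast cell carboxypeptidase gene Cpa3 entered at places 6 and 8, Ear3 stood at place 9 and Cebpe was not among the 10. With 4 arrays, of which 1 carries the difference, such likeness mostly reflects the size of the step on the sLTβR-Fc array.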

How the data were processed

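RNA of sorted spleen cells was labelled with biotin and hybridised to Illumina arrays, per the labels' protocols, and the submitters' processing notes name GenomeStudio 2011.1. The deposited values are linear intensities, 1 per probe and array. Neither background correction nor scaling is given in the sources used here, and detection p-values were not used here. The members and lists were chosen with earlier results of these data known.

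Probes were named through the platform annotation (34885 with 1 symbol, 18 with several, 10378 with none). Background was the most frequent intensity of each array, and a probe passed when above the 95% point of the mirrored noise below it (limits 113, 116, 106 and 109, passed by 51.6% to 53.1% of probes). The upper quartiles of the deposited intensities ranged from 146 to 188. Intensities were quantile normalised and converted to log2 with no floor or filter, because flooring gave many probes no spread between controls. Background remains in these values, so differences of dim genes are understated. Differences were tested in limma 3.58.1 (R 4.3.3) with 3 group means over the 4 arrays, a mean-variance trend and Benjamini-Hochberg adjustment to 0.05. The control pair supplies its only residual degree of freedom. The script was tested on simulated data. Lists used each gene's brightest probe, and a gene is 2-fold only if it differs that much from each control. Promoters were aligned with Biopython 1.88.

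Named were all member probes, the 10 nearest profiles, and Ccr3, Il5, Ccl11, Ccl24, Gata1 and Cebpe. Of the list genes 2-fold outside both controls only some were named (at most 5 a list), and several unnamed ones lay that far outside too. Other genes were named after their values were seen. Alternatives were other scalings, background correction, a floor, filters, 1 probe a gene, other variance models and leaving out a control. The number of arrays limits the precision.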

Additional observations from a re-analysis of the deposited data

How the results depend on the processing

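The count of 5 member probes 2-fold above both controls on the sLTβR-Fc array held under every alternative that gave a value except the values as deposited, where it was 4. The median log2 difference over all 9 member probes, 1.74, was 1.13 in the values as deposited and 1.58 under median scaling. It was 2.41 over the 6 member probes above background on all 4 arrays, also with all probes kept in the fit. It was 2.22 over the 7 above background on at least 1 array, also with a floor added. Keeping all probes in the fit and adding the floor here were chosen after seeing the data. Over the 8 brightest probes the median was 1.98. These medians leave out member probes at background, so they do not show a change in the probes kept. With either control left out the median over all 9 was 1.64 to 1.84. On the Ifnar-/- array the median, -0.050, was -0.32 as deposited, -0.15 after normexp correction and -0.098 to 0.026 with either control left out, the highest being without control 2. The probes below both controls, 4, were 9 as deposited and 4 to 7 with a control left out. The count called by limma, 0, was 1 as deposited (Prg2); leaving out a control left no residual degree of freedom and so no test.

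Over all probes limma called 1202 lower and 1065 higher on the Ifnar-/- array. The counts were 4412 and 351 as deposited, 30 and 1219 with a floor, 454 and 403 without the trend, and 0 and 0 with a floor and only probes above background on at least 1 array. Median scaling shifted all probes by a median of 0.13 for Ifnar-/- and 0.33 for sLTβR-Fc. No paired analysis was possible because the groups share only 1 replicate number. Intensities near background limit what can be said of Il5ra, Siglecf and Alox15.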

Other observations

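Chromosomal neighbours of the granule genes were looked at after the values of the members were seen. Of the nearest protein-coding genes with a probe, members aside, none was raised 2-fold, but some were not above background. The nearest genes with a probe on either side of the Prg2 and Prg3 pair are Slc43a3, a nucleobase transporter gene, which read 162 and 145 with PBS and 109 after sLTβR-Fc, and P2rx3, an ATP-gated channel gene, which was not above background on any array. Beside Epx, Mks1 read 166 and 194 with PBS and 168 after sLTβR-Fc, and Olfr462 on the other side was not above background on any array. Beside Ear6, Mettl17 read 306 and 369 with PBS, 517 in Ifnar-/- cells and 318 after sLTβR-Fc. Beside Ear10, the surfactant protein gene Sftpd read 122 and 118 with PBS, 138 in Ifnar-/- cells and 204 after sLTβR-Fc (1.70-fold). On the other side Ang5 was not above background on any array, and Ear1 and Ear2, on the same chromosome, had no probe to read. Ear14, a further ribonuclease gene of the family, passed background on 1 array and read 103, 107, 106 and 113.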
